A study of Mus musculus with 12 samples.

Results

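The Src family, Syk and Btk are cytoplasmic tyrosine kinases that carry signals from receptors at the macrophage surface. The 8 genes described here, Src, Lyn, Fgr, Fyn, Lck, Yes1, Syk and Btk, were taken by gene symbol from the deposited table of 53801 gene records. All 8 symbols were found once, and 7 of the 8 genes passed the filter on low values. The RNA-seq data come from 12 libraries of the mouse macrophage-like line RAW264.7, in 4 groups of 3. The groups were cells with an siRNA against Synbindin after 4 h with 100 ng/ml LPS, cells with a control siRNA after the same LPS exposure, Synbindin siRNA cells without LPS, and control siRNA cells without LPS. Synbindin is the trafficking protein encoded by Trappc4, and LPS is a bacterial outer membrane component sensed by Toll-like receptor 4. Cells with Synbindin siRNA are called silenced cells and the others control cells. All groups are 1 cell line at passages 3 to 5, and the labels do not say whether the 3 libraries of a group came from separate transfections. The p-values then cover only the spread among these samples, and that spread could be technical.

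As background, Src family kinases are anchored to the inner face of the membrane and are held inactive when the kinase Csk phosphorylates their C-terminal tail. Receptor phosphatases remove that phosphate. When immune receptors cluster, the family phosphorylates the ITAM, a paired tyrosine motif in receptor chains, and Syk docks on it through its SH2 domains. Btk, a Tec family kinase, binds membrane phosphoinositides, is phosphorylated by Src family kinases or Syk, and acts on phospholipase C gamma. ITIM receptors, which carry a single tyrosine motif, are phosphorylated by the same family and recruit phosphatases that oppose the signal. In macrophages the family is known from phagocytosis, adhesion and the response to fungal and bacterial ligands.

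Promoter sequences are shown for Src and Fgr, the pair of genes of this set with the highest LPS fold changes on the log2(FPKM + 1) scale, and for Btk, the 1 gene of the set that fell in both siRNA conditions. They are RefSeq windows of 300 bases on GRCm38.p6, from 250 bases before the annotated start to 50 bases after it. In the gene models used below, Src starts at base 157418444 and Btk, on the minus strand, at base 134583570, both outside these windows. Promoters at those 2 bases were not searched. Capitals mark the letters GAGGAAG, here on the opposite strand as CTTCCTC, a core bound by PU.1 and other ETS factors.
Src promoter, chr2:157424043-157424342, plus strand: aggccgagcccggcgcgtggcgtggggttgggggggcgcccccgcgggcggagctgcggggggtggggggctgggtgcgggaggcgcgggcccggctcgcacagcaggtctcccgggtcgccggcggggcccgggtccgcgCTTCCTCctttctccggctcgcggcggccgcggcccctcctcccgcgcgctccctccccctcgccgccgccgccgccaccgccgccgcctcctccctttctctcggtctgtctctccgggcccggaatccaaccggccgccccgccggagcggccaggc
Fgr promoter, chr4:132973845-132974144, plus strand: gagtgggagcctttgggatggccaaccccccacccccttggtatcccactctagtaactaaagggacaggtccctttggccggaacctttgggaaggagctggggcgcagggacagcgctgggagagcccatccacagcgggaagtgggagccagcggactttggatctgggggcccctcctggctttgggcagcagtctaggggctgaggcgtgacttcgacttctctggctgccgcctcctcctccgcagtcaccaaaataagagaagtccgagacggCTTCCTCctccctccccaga
Btk promoter, chrX:134583091-134583390, minus strand: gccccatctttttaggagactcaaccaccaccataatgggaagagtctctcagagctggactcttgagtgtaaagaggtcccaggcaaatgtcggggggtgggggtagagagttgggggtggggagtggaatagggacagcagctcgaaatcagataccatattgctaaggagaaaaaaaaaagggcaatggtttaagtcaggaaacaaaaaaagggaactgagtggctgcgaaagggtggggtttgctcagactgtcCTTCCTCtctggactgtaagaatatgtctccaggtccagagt
Relative to the start, the match began at base -109 in Src, base 30 in Fgr and base 8 in Btk. RefSeq windows were found for 7 of the 8 genes, 9 windows in all. The core was also in the upstream window of Lck, at base -175, and was not in the windows of Fyn, Syk or Yes1. Of all 32851 promoter windows, 13.6% held it on either strand. GC content was 82.3% in the Src window, 62.7% in the Fgr window and 49.3% in the Btk window, against a median of 52.7% over all windows. The GC box, GGGCGG, was in 35.7% of all windows and in those of Src, Fyn, Yes1 and the downstream window of Lck. None of the 9 windows held the letters searched for NF-kB (GGGA, any 1 base, then TTTCC, in 0.411% of all windows), AP-1 (TGANTCA, in 7.81%), the interferon response element (GAAA, any 2 bases, then GAAA, in 3.44%) or the TATA box (TATAAA, in 13.6%). Matches were sought on both strands and are a description of the letters.

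Trappc4 was lower in silenced cells at both times. It had 5.86, 7.71 and 8.26 FPKM in silenced cells after LPS, against 13.8, 15.7 and 9.45 FPKM in control cells after LPS, and 4.35, 7.17 and 6.15 FPKM in silenced cells without LPS, against 14.1, 13.1 and 12.5 FPKM in control cells without LPS. FPKM divide the fragments of a gene by transcript length and by the size of the library. The silenced cells kept 56.1% of the control level after LPS and 44.5% without LPS (exact permutation p = 0.1 each, 2-sided, the smallest that 3 against 3 libraries allow), and Trappc4 was not called by limma (adjusted p = 0.120 after LPS and 0.0558 without). Depth, estimated roughly from the steps between low FPKM values, was 7.46 to 17.7 M (mega) fragments per library. Of 9 macrophage markers 7 reached 1 FPKM, while Marco was listed at 0 and Mrc1 stayed under 1 FPKM. Cd79b and Ms4a1 of B cells and Cd3d, Cd3g and Cd2 of T cells were listed at 0 in all 12 libraries, while Ighm, the 1 of 6 B cell markers that reached 1 FPKM, stood at 12.5 to 20.5 FPKM. No neutrophil or fibroblast marker reached 1 FPKM.

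LPS was accompanied by more Src, Fgr and Lyn transcript and less Btk transcript in both siRNA conditions. Of the 8 kinases Src rose the most, 15.6-fold in silenced cells and 11.0-fold in control cells as ratios of mean FPKM, and Btk fell to 60.1% and 62.8% of its level without LPS. Syk rose 1.49-fold in silenced cells and was not called in control cells, Fyn was not called in either, and Yes1 was listed at 0 throughout. By limma on log2(FPKM + 1), with an adjusted p under 0.05 called, Src, Lyn, Fgr, Lck and Syk rose and Btk fell in silenced cells, where 13% of all 13078 genes tested rose and 35.5% fell. In control cells Src, Lyn, Fgr and Lck rose and Btk fell, where 15.3% of all genes tested rose and 32.9% fell. Lck passed the filter only through LPS libraries, so that its rise and its lack of overlap are a description. The 3 LPS libraries were all above the 3 without LPS for Src, Lyn, Fgr, Lck and Syk in silenced cells and for Src, Lyn, Fgr and Lck in control cells, which held for 16% and 18.2% of all genes. They were all below for Btk and Fyn in silenced cells and for Btk in control cells, which held for 41.9% and 38% of all genes. In silenced against control cells 0 of the 7 genes were called at either time, where 0.719% of all genes were called after LPS and 0.214% without LPS. With an unadjusted p under 0.05 in the limma fit, 3 of the 7 differed after LPS (Lck, Fgr and Lyn) and 2 without LPS (Src and Fgr), where 13% and 12% of all genes did. The Lck difference is a description too, since Lck passed the filter only through LPS libraries and was higher in the silenced ones. Fold changes below are on the log2(FPKM + 1) scale with their standard errors, and the median of all genes was -0.21 in silenced cells and -0.17 in control cells for LPS. Fewer cells of a type and less RNA per cell cannot be told apart in bulk RNA. Library measures also differed with LPS. Mitochondrially encoded transcripts made up 13.3% ± 0.503 of the FPKM in silenced cells after LPS, against 16.0% ± 0.756 without LPS, and 12.7% ± 0.426 in control cells after LPS, against 17.8% ± 0.801 without LPS (SD, n = 3 each). Estimated depth averaged 15.3 M fragments in silenced cells after LPS, against 12.1 M without LPS, and 11.9 M in control cells after LPS, against 9.19 M without LPS. The LPS calls of Src, Fgr, Lyn and Btk held with estimated depth as a covariate, and the part of the mitochondrial share was not tested.

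**Figure D1:**
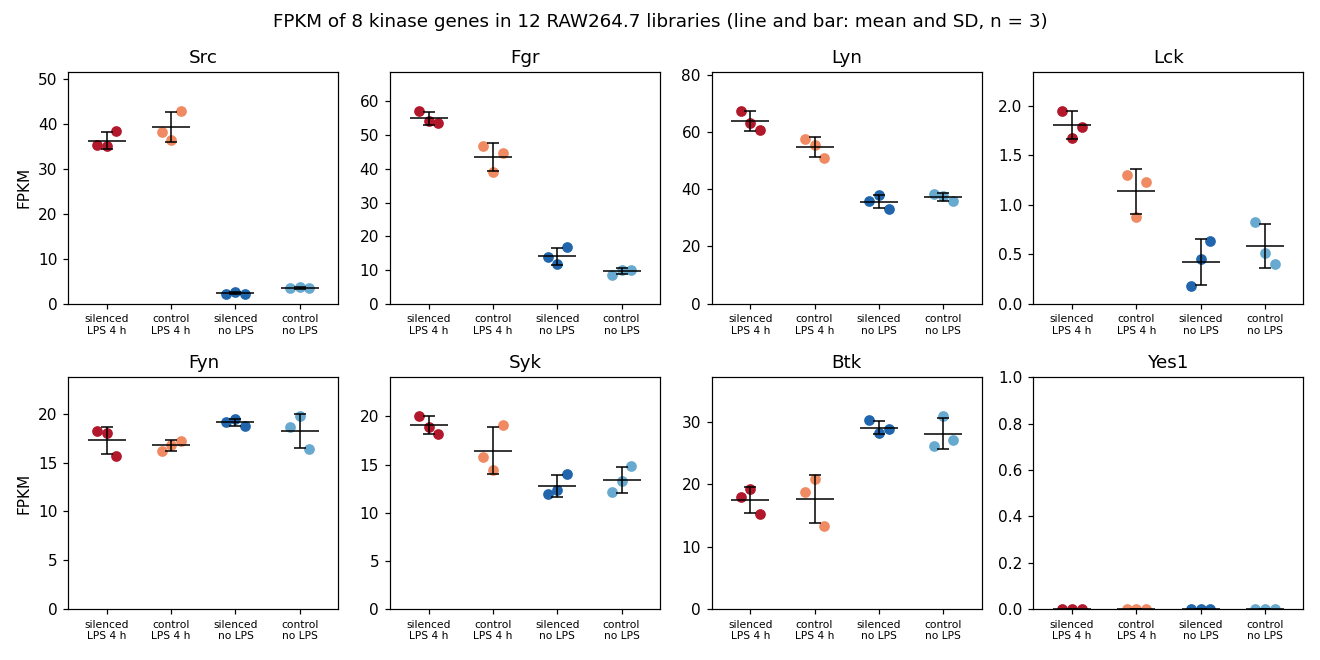
FPKM of the 8 kinase genes on a linear axis, with 1 point per library and a line and bar for the mean and SD of the 3 libraries of each group. The LPS libraries of Src lie between 35.0 and 42.9 FPKM and those without LPS between 2.15 and 3.74 FPKM, Btk runs the other way, and Yes1 is listed at 0 in all 12 libraries.

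Src (ENSMUSG00000027646, GRCm38 chromosome 2, 157418444 to 157471862, plus strand, with 8 annotated transcripts) encodes the founding member of the family, a kinase of adhesion and cytoskeletal signalling. In silenced cells it had 35.3, 35.0 and 38.4 FPKM after LPS, against 2.28, 2.55 and 2.15 FPKM without LPS. In control cells it had 38.2, 36.4 and 42.9 FPKM after LPS, against 3.50, 3.74 and 3.43 FPKM without LPS. Every LPS library was above every library without LPS. The log2 fold change was 3.48 ± 0.09 in silenced cells (adjusted p = 2.64e-10) and 3.14 ± 0.09 in control cells (adjusted p = 5.68e-10). Counted from the largest rise downward over the 13078 genes, Src ranked 86 in silenced cells and 94 in control cells. Under the 22 alternative settings Src was called in both, with estimates of 3.43 to 3.91 in silenced cells and 3.07 to 3.42 in control cells.

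Without LPS, Src averaged 2.33 ± 0.204 FPKM in silenced cells and 3.56 ± 0.161 FPKM in control cells (SD, n = 3 each), 65.5% of the control level. All 3 silenced libraries were below all 3 control libraries, which held for 8.35% of all genes tested. The log2 difference was -0.45 ± 0.09 and was not called (limma adjusted p = 0.0689). It was called with a pseudocount of 0.1, where it was -0.59 (limma adjusted p = 0.0365). With a stricter filter of 5 FPKM the estimate was unchanged and was called (limma adjusted p = 0.0498). Src passed that filter only through LPS libraries, while the libraries compared here held 2.15 to 3.74 FPKM. After LPS, Src averaged 36.2 ± 1.90 FPKM in silenced cells and 39.2 ± 3.35 FPKM in control cells, and the groups overlapped (log2 difference -0.11, 95% interval -0.30 to 0.08, limma adjusted p = 0.665). The LPS effect was 0.35 ± 0.12 higher in silenced than in control cells on the log2 scale, which was not called (limma adjusted p = 0.343).

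Fgr (ENSMUSG00000028874, GRCm38 chromosome 4, 132974095 to 133001910, plus strand, with 4 annotated transcripts) is a family member found mainly in myeloid cells. Silenced cells had 57.3, 54.1 and 53.7 FPKM after LPS, against 13.9, 11.7 and 16.8 FPKM without LPS. Control cells had 46.8, 39.0 and 44.8 FPKM after LPS, against 8.66, 10.2 and 10.1 FPKM without LPS. LPS and no-LPS libraries did not overlap in either siRNA condition. The mean was 3.90-fold higher with LPS in silenced cells (log2 1.90 ± 0.12, limma adjusted p = 2.69e-07) and 4.51-fold higher in control cells (log2 2.06 ± 0.12, limma adjusted p = 1.77e-07).

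Fgr was the 1 kinase of the set whose silenced libraries all lay above the control libraries at both times. After LPS the means were 55.0 ± 1.98 FPKM in silenced cells and 43.5 ± 4.04 FPKM in control cells, a ratio of 1.26. Without LPS they were 14.1 ± 2.57 FPKM in silenced cells and 9.65 ± 0.858 FPKM in control cells, a ratio of 1.46. Higher values without overlap occurred in 7.62% of all genes tested after LPS and in 9.86% without LPS. The share of all genes with such values at both times is not reported here. The log2 differences of 0.34 ± 0.12 and 0.49 ± 0.12 were not called (limma adjusted p = 0.259 and 0.148), nor under any of the 22 alternatives, where adjusted p was at least 0.176 after LPS and 0.114 without LPS. The difference between the LPS effects was -0.16 ± 0.17 (limma adjusted p = 0.756). The summed level of the 9 macrophage markers also stood higher in silenced cells, at 1963 to 2686 FPKM against 1460 to 1861 FPKM in control cells after LPS, and at 2125 to 2592 FPKM against 1543 to 1699 FPKM in control cells without LPS. Of the 7 tested, Lyz2 alone was called between silenced and control cells at either time, and most of the difference in the sum lay in it. Lyz2 averaged 1097 FPKM in silenced cells and 463 FPKM in control cells after LPS, and 1214 and 554 FPKM without LPS. Cd14 averaged 601 FPKM in silenced cells and 416 FPKM in control cells after LPS, and 291 and 187 FPKM without LPS. After LPS, Csf1r (174 FPKM in silenced cells and 203 in control cells), Cd68 (390 and 453) and Spi1 (149 and 152) were not higher in silenced cells. The part of this difference in the Fgr values was not tested.

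Lyn (ENSMUSG00000042228, GRCm38 chromosome 4, 3678115 to 3813122, plus strand, with 4 annotated transcripts) acts on both ITAM and ITIM receptors, and so can promote or restrain a signal. Lyn stood in silenced cells at 67.4, 63.2 and 60.5 FPKM after LPS, against 35.9, 37.9 and 33.2 FPKM without LPS. Lyn stood in control cells at 57.6, 55.5 and 51.0 FPKM after LPS, against 38.5, 37.5 and 35.8 FPKM without LPS. Lyn was higher in each LPS library than in any library without LPS. The rise was 1.79-fold in silenced cells (log2 0.82 ± 0.08, limma adjusted p = 6.09e-06) and 1.47-fold in control cells (log2 0.54 ± 0.08, limma adjusted p = 0.000147).

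After LPS, all 3 silenced libraries exceeded all 3 control libraries in Lyn, with means of 63.7 ± 3.50 FPKM in silenced cells and 54.7 ± 3.35 FPKM in control cells. Such a separation upward held for 7.62% of all genes tested. The log2 difference of 0.22 ± 0.08 was not called (limma adjusted p = 0.255). Without LPS the means were 35.7 ± 2.34 FPKM in silenced cells and 37.2 ± 1.34 FPKM in control cells, and the groups overlapped (log2 difference -0.06, limma adjusted p = 0.801). The LPS effect was 0.28 ± 0.11 higher in silenced cells, not called (limma adjusted p = 0.381). A pseudogene, 9430025C20Rik, and a lincRNA, Gm26857, lie on the opposite strand within the Lyn locus, at means of 3.02 and 2.17 FPKM. The libraries kept strand information, and the strand setting of the counting is not given in the sources used here.

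Fyn (ENSMUSG00000019843, GRCm38 chromosome 10, 39368855 to 39565381, plus strand, with 9 annotated transcripts) is a widely expressed family member, and no change in its level was called. Silenced cells had 18.2, 18.0 and 15.7 FPKM after LPS, against 19.2, 19.5 and 18.8 FPKM without LPS. Control cells had 16.2, 16.8 and 17.3 FPKM after LPS, against 18.6, 19.8 and 16.4 FPKM without LPS. LPS libraries lay below those without LPS in silenced cells and overlapped them in control cells. The log2 fold change for LPS was -0.14 in silenced cells (95% interval -0.33 to 0.05, limma adjusted p = 0.203) and -0.11 in control cells (95% interval -0.30 to 0.08, limma adjusted p = 0.301). Both turned positive under median-ratio scaling, at 0.13 and 0.11, and were not called there either. The silenced and control libraries overlapped, with log2 differences of 0.04 after LPS and 0.07 without LPS (limma adjusted p = 0.892 and 0.804).

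Lck (ENSMUSG00000000409, GRCm38 chromosome 4, 129548344 to 129573641, minus strand, with 8 annotated transcripts) is the family member best known from T cells, and it was low here. In silenced cells it had 1.95, 1.67 and 1.78 FPKM after LPS, against 0.180, 0.450 and 0.634 FPKM without LPS. In control cells it had 1.30, 0.879 and 1.23 FPKM after LPS, against 0.827, 0.516 and 0.405 FPKM without LPS. It passed the filter only through 5 LPS libraries, so that its call is a description. The log2 fold change was 0.99 ± 0.17 in silenced cells (limma adjusted p = 0.000459) and 0.44 ± 0.17 in control cells (limma adjusted p = 0.0497). The call in control cells was lost in 14 of 21 alternatives, with adjusted p up to 0.142. A library held an estimated 49.5 to 68.9 Lck fragments in silenced cells after LPS, 19.5 to 36.8 in control cells after LPS, and at most 17.4 in silenced cells and 14.3 in control cells without LPS.

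The summed level of the 11 T and NK cell markers was also higher after LPS. It was 4.02 to 5.20 FPKM in silenced cells after LPS, 2.52 to 4.48 in control cells after LPS, 1.17 to 1.40 in silenced cells without LPS and 0.593 to 1.04 in control cells without LPS. Without LPS Lck ran the other way between the conditions, with means of 0.421 FPKM in silenced cells and 0.583 FPKM in control cells. Cd247 and Cd5 were the 2 of the 11 that reached 1 FPKM in any library, and they made up most of the sum. Cd247 averaged 1.96 FPKM in silenced and 1.45 FPKM in control cells after LPS, against 0.00506 and 0 FPKM without LPS. Cd5 averaged 2.51 FPKM in silenced and 1.64 FPKM in control cells after LPS, against 1.13 and 0.769 FPKM without LPS. Cd3d, Cd3g, Cd2, Cd8a and Ncr1, which define T or NK cells, were listed at 0 in all 12 libraries. The part of the marker difference in the Lck values was not tested.

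Yes1 (ENSMUSG00000014932, GRCm38 chromosome 5, 32611171 to 32687057, plus strand, with 5 annotated transcripts), a broadly expressed family member in other cells, was listed at 0 in every library and was not tested. Of 83 ribosomal protein genes in the same table, 81 were above 0 in some library and 2, the paralogs Rpl10l and Rpl39l, were listed at 0. Why Yes1 was listed at 0 was not tested. Without counts, no upper limit can be set on Yes1.

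Syk (ENSMUSG00000021457, GRCm38 chromosome 13, 52583173 to 52648792, plus strand, with 5 annotated transcripts) couples phosphorylated ITAMs to downstream adaptors. Silenced cells had 20.1, 18.9 and 18.2 FPKM after LPS, against 11.9, 12.3 and 14.0 FPKM without LPS. Control cells had 15.8, 14.4 and 19.1 FPKM after LPS, against 12.1, 13.3 and 14.9 FPKM without LPS. LPS libraries lay above those without LPS in silenced cells and overlapped them in control cells. The log2 fold change was 0.55 ± 0.11 in silenced cells (limma adjusted p = 0.00184) and 0.27 ± 0.11 in control cells (limma adjusted p = 0.0671).

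The difference between those LPS effects was 0.28 ± 0.16 and was not called (limma adjusted p = 0.547), so a call in silenced cells alone does not show that the cells differed. The control estimate was called in 5 of the 22 alternatives, among them median-ratio scaling, where it was 0.49 (adjusted p = 0.00589), and quantile normalization, where it was 0.38 (adjusted p = 0.0277). It was also called with the replicate number as a block (adjusted p = 0.0449). Leaving out control LPS replicate 2 gave 0.36 (adjusted p = 0.0308), and leaving out control no-LPS replicate 3 gave 0.34 (adjusted p = 0.0414). Between silenced and control cells the log2 difference was 0.21 after LPS (95% interval -0.04 to 0.46) and -0.07 without LPS (95% interval -0.31 to 0.18), with limma adjusted p = 0.472 and 0.864.

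Btk (ENSMUSG00000031264, GRCm38 chromosome X, 134542336 to 134583570, minus strand, with 5 annotated transcripts) is the Tec family kinase of B cell and myeloid receptor signalling. In silenced cells it had 17.9, 19.3 and 15.2 FPKM after LPS, against 30.3, 28.1 and 28.8 FPKM without LPS. In control cells it had 18.8, 20.8 and 13.3 FPKM after LPS, against 26.2, 31.0 and 27.2 FPKM without LPS. Each LPS library was below each library without LPS. The log2 fold change of Btk was -0.71 ± 0.14 in silenced cells (limma adjusted p = 0.00164) and -0.66 ± 0.14 in control cells (limma adjusted p = 0.00268), and was called in both under all 22 alternatives. Silenced and control libraries overlapped at both times, with log2 differences of 0.00 after LPS (95% interval -0.31 to 0.32) and 0.05 without LPS (95% interval -0.27 to 0.37).

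**Figure D2:**
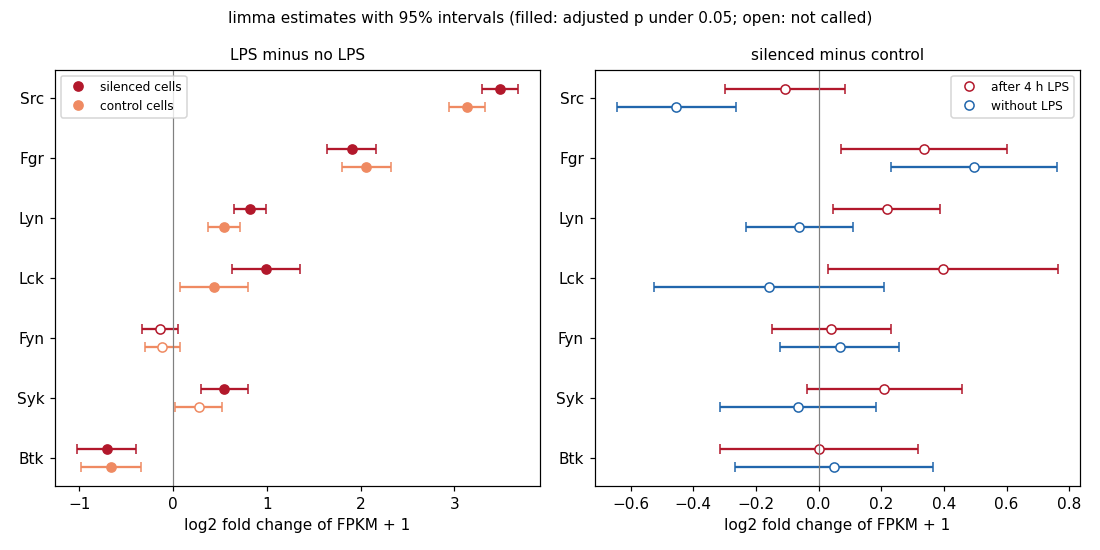
Log2 fold changes of FPKM + 1 with 95% intervals for the 7 kinases tested, LPS minus no LPS on the left and silenced minus control on the right. Filled points had an adjusted p under 0.05. Src reaches 3.48 in silenced cells and 3.14 in control cells on the left, and no point is filled on the right.

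The order of the kinases by level differed with LPS. After LPS the order was Lyn, Fgr and Src, at 63.7, 55.0 and 36.2 FPKM in silenced cells and 54.7, 43.5 and 39.2 FPKM in control cells. The libraries of Fgr and Src overlapped in control cells and not in silenced cells. Syk, Btk and Fyn followed between 16.4 and 19.1 FPKM, and neighbours among these overlapped in both conditions. Without LPS the order in silenced cells was Lyn, Btk, Fyn, Fgr, Syk and Src, with overlap between Fgr and Syk. In control cells without LPS it was Lyn, Btk, Fyn, Syk, Fgr and Src, with no overlap between neighbours. Src was the sixth of the 7 kinases with values above 0 without LPS and the third after it. Lck was the lowest of those 7 in all 4 groups, and Yes1 was listed at 0.

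The summed level of the 6 Src family genes Src, Fgr, Lyn, Fyn, Lck and Yes1 was 174 ± 5.33 FPKM in silenced cells after LPS, against 71.7 ± 0.328 FPKM without LPS. Control cells reached 155 ± 5.94 FPKM after LPS, against 69.3 ± 2.82 FPKM without LPS (SD, n = 3 each). The share of Src in this sum was 20.8% in silenced cells after LPS, against 3.25% without LPS, and 25.2% in control cells after LPS, against 5.13% without LPS. Fgr made up 31.6% in silenced cells after LPS, against 19.7% without LPS, and 28.0% in control cells after LPS, against 14.0% without LPS.

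Lyn and Fyn took smaller shares after LPS. Lyn made up 36.6% in silenced cells after LPS, against 49.8% without LPS, and 35.3% in control cells after LPS, against 53.8% without LPS, although its FPKM rose. Fyn made up 9.93% in silenced cells after LPS, against 26.7% without LPS, and 10.8% in control cells after LPS, against 26.3% without LPS. Shares add up to a whole, so that a smaller share is not a lower level. Lck was at most 1.18% of the sum in any library.

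**Figure D3:**
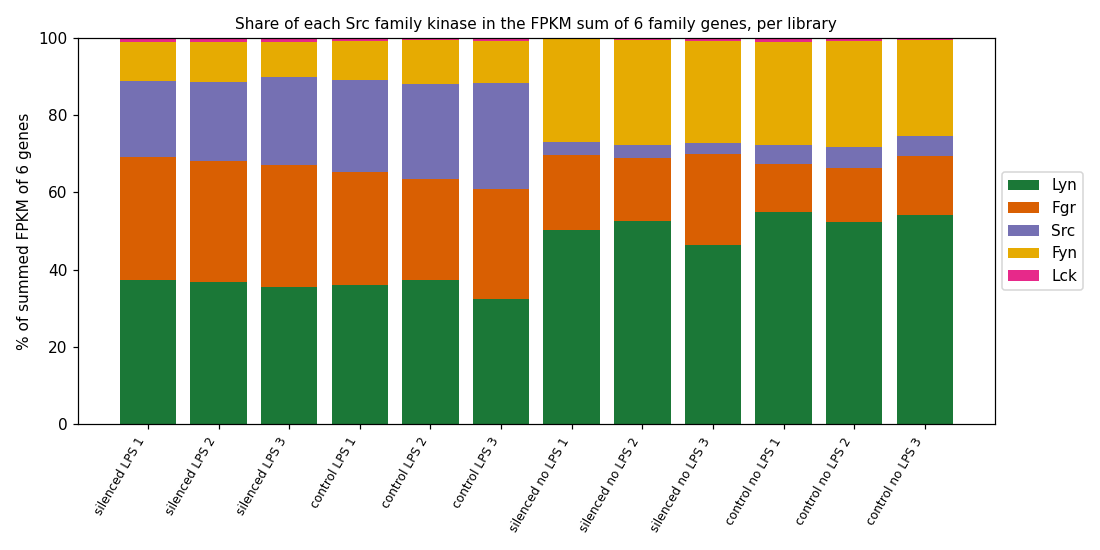
Percent of the summed FPKM of the 6 Src family genes taken by each gene, with 1 stacked bar per library, from silenced LPS libraries on the left to control libraries without LPS on the right. Src takes 19.6% to 27.3% of each LPS bar and 3.00% to 5.22% of each bar without LPS, Lyn and Fyn take more of the bars without LPS, and Yes1, listed at 0, is not visible.

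The genes that act with these kinases were counted from 7 lists of 76 genes, of which 63 were tested. For LPS, 20 rose and 28 fell in silenced cells, and 20 rose and 31 fell in control cells. That is 76.2% and 81% of the 63, where 48.5% and 48.2% of all genes were called. Their median log2 fold change was -0.24 in silenced cells and -0.28 in control cells, against -0.21 and -0.17 over all genes. Of the 63 genes, Bcar1, Cblb, Plcg1 and Vav2 passed the filter only through libraries without LPS, so that their falls (3 of the 28 in silenced cells and 4 of the 31 in control cells) are a description. Called genes of these lists kept their sign under the 3 other scalings and the pseudocount of 0.1.

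In a list drawn up for restraint of the Src family or its signals, 8 of 12 tested genes fell and 1 rose in silenced cells. In control cells 9 fell and 2 rose. The median log2 fold changes were -0.64 in silenced cells and -0.69 in control cells. The list holds Csk, its anchor, phosphatases, ubiquitin ligases and Dok adaptors, and not every member acts on the kinases themselves. The 9 include Cblb, which passed the filter only through libraries without LPS, so that its fall is a description. Of all genes tested, 35.5% fell and 13% rose in silenced cells, and 32.9% fell and 15.3% rose in control cells. Under median-ratio scaling 7 fell and 2 rose in silenced cells, and 7 fell and 3 rose in control cells. With that scaling 2824 of all 13078 genes fell and 2975 rose in silenced cells, and 2853 fell and 3215 rose in control cells. Inpp5d, a lipid phosphatase recruited by ITIM receptors, averaged 6.18 ± 1.21 FPKM in silenced cells after LPS, against 29.6 ± 0.946 FPKM without LPS, and 7.09 ± 1.41 FPKM in control cells after LPS, against 31.2 ± 0.931 FPKM without LPS. Its log2 fold change was -2.11 ± 0.14 in silenced cells and -2.01 ± 0.14 in control cells (limma adjusted p = 4.10e-07 and 7.00e-07). Ptpn6, a tyrosine phosphatase of ITIM receptors, fell too, with log2 fold changes of -1.12 in silenced cells and -0.66 in control cells. Pag1, a membrane anchor of Csk, had -1.12 in silenced cells and -1.04 in control cells, and Dok3, an inhibitory adaptor, had -1.01 in silenced cells and -1.09 in control cells. Csk itself, named outside the rule for its role in the background above, averaged 24.7 ± 5.00 FPKM in silenced cells after LPS, against 46.1 ± 2.15 FPKM without LPS, and 24.0 ± 2.92 FPKM in control cells after LPS, against 42.1 ± 2.04 FPKM without LPS. Its log2 fold change was -0.89 in silenced cells and -0.79 in control cells (limma adjusted p = 0.000158 and 0.000378).

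The phosphatases that act on the tail went both ways, with 2 of 5 higher and 2 lower in each condition. Over all genes tested, 13% rose and 35.5% fell in silenced cells, and 15.3% rose and 32.9% fell in control cells. Ptprj, a receptor phosphatase of macrophages, averaged 74.1 ± 8.64 FPKM in silenced cells after LPS, against 11.3 ± 1.11 FPKM without LPS, and 66.8 ± 13.7 FPKM in control cells after LPS, against 10.4 ± 2.46 FPKM without LPS. Its log2 fold change was 2.61 ± 0.18 in silenced cells and 2.57 ± 0.18 in control cells (limma adjusted p = 4.02e-07 and 5.60e-07). Ptpre, another receptor phosphatase, rose by log2 1.23 in silenced cells and 1.67 in control cells. Ptpra fell, with log2 fold changes of -1.17 in silenced cells and -0.69 in control cells. So did Ptpn1, an endoplasmic reticulum phosphatase, with -0.79 in silenced cells and -0.72 in control cells.

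ITAM chains and receptors upstream of Syk had 5 of 10 tested members higher and 2 lower in both conditions. Of all genes, 13% rose and 35.5% fell in silenced cells, and 15.3% rose and 32.9% fell in control cells. The 5 were Fcgr1, Fcgr4, Clec7a, Clec4e and the integrin subunit Itgb2. The Fcgr1 call in control cells held in 6 of the 12 fits that left out 1 library, with limma adjusted p up to 0.151. The chains Tyrobp and Fcer1g, named outside the rule, were not among the 5. Tyrobp fell, with log2 fold changes of -0.44 in silenced cells and -0.68 in control cells (limma adjusted p = 0.00150 and 6.83e-05). Fcer1g was not called, at 0.18 in silenced cells and -0.06 in control cells (limma adjusted p = 0.160 and 0.630). Clec4e, a receptor for microbial glycolipids, averaged 57.6 ± 0.687 FPKM in silenced cells after LPS, against 5.89 ± 1.06 FPKM without LPS, and 38.9 ± 4.17 FPKM in control cells after LPS, against 4.60 ± 1.37 FPKM without LPS. Its log2 fold change was 3.10 in silenced cells and 2.85 in control cells (limma adjusted p = 5.73e-08 and 1.24e-07). Fcgr4, an IgG receptor, rose by log2 1.33 in silenced cells and 1.02 in control cells, and Clec7a, the beta-glucan receptor, by 0.88 in silenced cells and 1.27 in control cells. Trem2, a lipid receptor, had a log2 fold change of -1.36 in both. Of the ITIM receptors, 3 of 9 rose and 3 fell in silenced cells, and 2 rose and 4 fell in control cells. Lilrb4a, an inhibitory receptor, rose by log2 3.02 ± 0.71 in silenced cells and 3.90 ± 0.71 in control cells. Its control libraries without LPS held 14.2, 0 and 4.01 FPKM, and without the one listed at 0 the control value was 2.86. Siglece, a sialic acid receptor, rose by 1.16 in silenced cells and 1.37 in control cells. Sirpa, the receptor for CD47, had log2 fold changes of -1.56 in silenced cells and -2.24 in control cells, and Lair1, a collagen receptor, had -0.99 in silenced cells and -0.45 in control cells. The Lair1 call in control cells held in 10 of the 12 fits that left out 1 library, with adjusted p up to 0.0646.

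Adaptors and effectors of Syk and Btk had 7 of 20 higher and 10 lower in silenced cells, and 7 higher and 11 lower in control cells. The lower counts include Plcg1 and Vav2, which passed the filter only through libraries without LPS, so that their falls are a description. Over all genes 13% rose and 35.5% fell in silenced cells, and 15.3% rose and 32.9% fell in control cells. Under median-ratio scaling 8 rose and 8 fell in silenced cells, and 7 rose and 7 fell in control cells. All 13078 genes then had 2975 higher and 2824 lower in silenced cells, and 3215 higher and 2853 lower in control cells. Malt1, the protease of the complex that links Syk to NF-kB, averaged 114 ± 9.59 FPKM in silenced cells after LPS, against 8.55 ± 0.514 FPKM without LPS, and 93.6 ± 17.8 FPKM in control cells after LPS, against 7.99 ± 1.26 FPKM without LPS. Its log2 fold change was 3.59 in silenced cells and 3.39 in control cells (limma adjusted p = 4.45e-09 and 8.50e-09). Lcp2, a scaffold phosphorylated by Syk, rose by log2 1.82 in silenced cells and 1.86 in control cells. Pik3r1, a regulatory subunit of phosphoinositide kinase, fell, with log2 fold changes of -1.24 in silenced cells and -1.20 in control cells. Vav1, an exchange factor for small GTPases, had -1.17 in silenced cells and -0.93 in control cells.

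Adhesion kinases and substrates of Src had 2 of 6 higher and 2 lower in each condition. Among all genes tested, 13% rose and 35.5% fell in silenced cells, and 15.3% rose and 32.9% fell in control cells. Under median-ratio scaling the list had 3 higher and 0 lower in silenced cells, and 2 higher and 1 lower in control cells. The counts over all 13078 genes were then 2975 higher and 2824 lower in silenced cells, and 3215 and 2853 in control cells. Pxn, the focal adhesion scaffold paxillin, rose by log2 1.01 in silenced cells and 0.66 in control cells, and Stat3, a transcription factor that Src can phosphorylate, by 0.66 in silenced cells and 0.46 in control cells. Ptk2b, a focal adhesion kinase relative, had log2 fold changes of -0.48 in silenced cells and -0.78 in control cells, and Bcar1, a docking protein, had -0.65 in silenced cells and -0.53 in control cells. Bcar1 reached 1 FPKM in 1 of 6 LPS libraries and 5 of 6 without LPS, so that its call is a description. Leaving out 1 library of 12 kept that call in 9 fits in silenced cells and in 5 in control cells, with limma adjusted p up to 0.0730 and 0.145. Tec, the Btk relative, averaged 8.24 ± 1.50 FPKM in silenced cells after LPS, against 19.3 ± 1.28 FPKM without LPS, and 6.12 ± 2.33 FPKM in control cells after LPS, against 18.0 ± 1.37 FPKM without LPS. Its log2 fold change was -1.15 in silenced cells and -1.47 in control cells (limma adjusted p = 0.000630 and 0.000111). Of the 7 genes listed as other Src, Syk and Tec family kinases, Tec was the 1 tested.

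**Figure D4:**
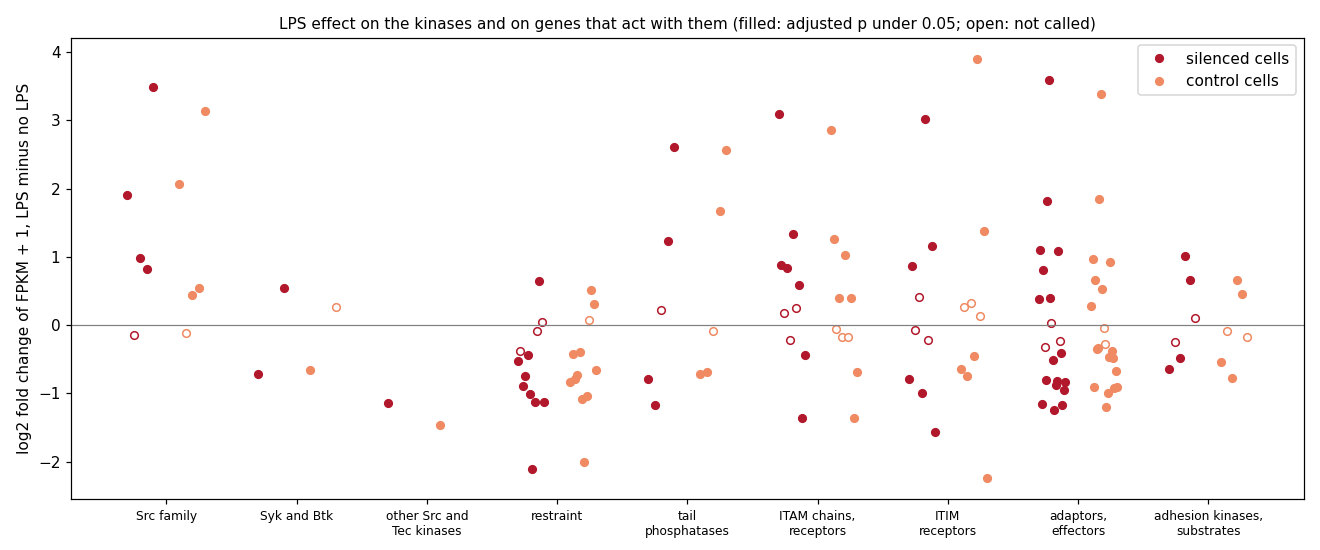
Log2 fold change of FPKM + 1, LPS minus no LPS, for each tested gene of the 2 kinase groups and the 7 lists, with silenced cells to the left of control cells in each column. Filled points had an adjusted p under 0.05. In the restraint column 8 of 12 points are filled below 0 in silenced cells and 9 of 12 in control cells. The 9 include Cblb, which passed the filter only through libraries without LPS.

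Between silenced and control cells, 1 of the 63 genes was called after LPS, 0 without LPS and 0 for the difference between the LPS effects, where 0.719%, 0.214% and 0.0612% of all genes were called. The 1 gene was Fcgr1, the high-affinity IgG receptor that signals through an ITAM chain to Syk. It averaged 33.9 ± 3.52 FPKM in silenced cells after LPS and 19.3 ± 0.988 FPKM in control cells after LPS. Its log2 difference was 0.78 ± 0.15 (limma adjusted p = 0.0417). The call held in 8 of 22 alternatives, with adjusted p between 0.0193 and 0.167, and was lost without any 1 of the 6 LPS libraries. Of the kinases, 0 of 7 were called for the difference between LPS effects, and 3 (Lck, Src and Lyn) had an unadjusted p under 0.05 in the limma fit, where 11.3% of all genes did. The place of Lck among these 3 is a description, since it passed the filter only through LPS libraries. Of the 63 list genes, 14 after LPS, 10 without LPS and 10 for that difference had an unadjusted p under 0.05, where 13%, 12% and 11.3% of all genes did.

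Genes whose log2(FPKM + 1) followed Lyn, Fgr and Btk most closely over the 12 libraries were sought among 6620 genes with a mean of at least 5 FPKM. The libraries fall into 2 clusters by LPS, so that r over all 12 mostly reflects LPS, and values within the 6 libraries of each kind are given as a description. For Lyn they were Zc3h12a, an endoribonuclease, with r = 0.986 over 12, 0.912 over 6 with LPS and 0.465 over 6 without LPS, and Sod2, a mitochondrial superoxide dismutase, with r = 0.985, 0.885 and 0.500. For Fgr they were Mapkapk2, a stress-activated kinase, with r = 0.989 over 12, 0.914 with LPS and 0.749 without LPS, and Sp110, a nuclear body protein, with r = 0.989, 0.807 and 0.863. For Btk they were Nup107, a nuclear pore subunit, with r = 0.989 over 12, 0.956 with LPS and 0.864 without LPS, and Irf2bp1, a transcriptional co-repressor, with r = 0.989, 0.952 and 0.836. The points share libraries, depth and the LPS treatment.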

How the data were processed

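RNA-seq gene expression was measured in 12 RAW264.7 libraries. The authors deposited them as FPKM in a single table (53801 gene records). HISAT2, StringTie and GRCm38 are named, without versions, in the submitters' processing notes. Annotation release, strand setting and handling of multi-mapped reads: not given in the sources used here. Per the labels' protocols the libraries were strand-specific.

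Gene positions are from GENCODE M21 on GRCm38, matched by Ensembl ID, and promoter windows from RefSeq on GRCm38.p6, matched by symbol. The 13078 genes that reached 1 FPKM in 3 or more libraries were tested with limma 3.58.1 (R 4.3.3) on log2(FPKM + 1), using all 12 libraries, a mean for each group, an intensity trend and 8 residual degrees of freedom. This scale understates the change of low genes. Tests were 2-sided with Benjamini-Hochberg adjustment over all genes tested, and calls needed an adjusted p under 0.05. The 5 comparisons set silenced against control cells after LPS and without, LPS against none in silenced and in control cells, and the difference between the LPS effects (interaction). Trappc4 was compared by an exact permutation test. No count test suits FPKM, and depths read from the steps between low values are rough. The fit was tested on simulated data.

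The kinases and gene lists were chosen with earlier results of these data known. All 8 kinases were named. Each list gave up to 4 genes called in an LPS comparison with the largest fold changes, and any gene called between silenced and control cells. The genes most like a kinase were the 2 with the highest r for each of the 3 kinases with the highest mean FPKM. The 22 alternatives were leaving out each library, 3 other scalings, a pseudocount of 0.1, a stricter filter or none, a block for the replicate number, fitting the compared groups alone, dropping the intensity trend, and the estimated depth as a covariate, which was chosen after seeing the data. Some genes of the lists are not reported here.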

Additional observations from a re-analysis of the deposited data

How the results depend on the processing

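Over the tested kinases and 5 comparisons, 728 of the alternative values kept their direction and call, 14 lost a call (Lck for LPS in control cells), 7 gained one (5 of Syk for LPS in control cells, 2 of Src without LPS) and 16 changed sign, none of them called. Lck could not be tested with the stricter filter. In silenced against control cells without LPS, 1 kinase (Src) was called with a pseudocount of 0.1 and 1 with the stricter filter, against 0. Src passed the stricter filter only through LPS libraries, which are not compared there. Leaving out 1 library, 4 to 6 kinases were called for LPS in control cells, 6 in silenced cells and 0 in the other comparisons. Log2 values that changed sign were these. Btk in silenced against control cells after LPS gave -0.0377 with a common sum and -0.176 to 0.127 leaving out 1 library. Without LPS, Fyn gave -0.00458 to 0.125 and Syk -0.132 to 0.00529 between silenced and control cells leaving out 1 library. Fyn gave 0.126 and 0.110 for LPS in silenced and control cells under median-ratio scaling. For the interaction, Fyn gave 0.0156 under median-ratio scaling, 0.0161 under quantile normalization and -0.0842 to 0.0454 leaving out 1 library, and Btk gave 0.0204 under quantile normalization and -0.227 to 0.0762 leaving out 1 library. Of all genes, 94 were called between silenced and control cells after LPS, against 38 with quantile normalization, 0 with only the groups compared, 50 with no intensity trend and 18 with depth as a covariate, and 10 to 91 leaving out 1 library. At unadjusted p under 0.05 there were 1697. Without LPS 28 were called, against 6 with only the groups compared, 10 with no intensity trend and 9 with depth, and 3 to 41 leaving out 1 library. For the interaction 8 were called, against 5 with a pseudocount of 0.1 and 4 with no intensity trend, and 0 to 20 leaving out 1 library. For LPS 5462 to 6418 were called in silenced cells and 5602 to 6322 in control cells leaving out 1 library. Median-ratio scaling moved the share of calls that were higher to 51.3% in silenced cells and 53.0% in control cells for LPS, against 26.8% and 31.7%, and to 60.5% between silenced and control cells after LPS, against 43.6%, with 73.7% under quantile normalization. It moved the median of all genes for LPS to 0.02 in both. Correlations of same-numbered libraries' deviations were 0.0176 to 0.189 between silenced and control cells after LPS, -0.0274 to 0.129 without LPS, 0.0578 to 0.0639 for LPS in silenced cells and 0.0737 to 0.139 in control cells. They were not all over 0.1 in any comparison, so the numbers were not taken to pair the samples. For LPS every library correlated best with its own number, a hint from the data, and between silenced and control cells not every library did. With the replicate number as a block, 48 genes were called without LPS, and of the kinases Syk was gained and Lck lost for LPS in control cells. The cause of these changes was not tested.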
